A study of Homo sapiens with 3 samples.

Results

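The genes of G2 and mitosis were followed across 3 expression arrays of RH30, a cell line of alveolar rhabdomyosarcoma, a tumour of children and young adults with features of skeletal muscle. The list holds 45 genes, chosen by name for their work at the G2 to M transition, at the kinetochore, in the spindle, in cytokinesis and in chromosome condensation. No signal entered the rule, but the list was chosen with earlier results of these data known. Of the 45, 44 had at least 1 probe set that names only that gene, and all 44 passed the signal filter, out of 6745 genes measured in all. ANLN, which encodes a scaffold of the contractile ring, had no such probe set and was not analysed here.

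The cells had received 10 µM of an anti-MYCN PNA (a peptide nucleic acid, in which a pseudopeptide chain carries the bases), 10 µM of a mutated form of that PNA, or nothing. The labels give 12 hours for all of them, and there was 1 array for anti-MYCN PNA, 1 for mutated PNA and 1 for untreated cells. With 1 array per condition no difference has a replicate error or a test, and the labels do not say how the cultures were set up. The mutated PNA and untreated arrays are called the controls. The array titled untreated carries a source name that says mutated PNA, so every direction between the controls rests on its title. All cells belong to 1 line, so nothing here extends to other rhabdomyosarcomas.

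Entry into mitosis is driven by the kinase CDK1 bound to cyclin A or cyclin B. WEE1 and PKMYT1 hold CDK1 inactive by phosphorylation, and CDC25 phosphatases remove those phosphates. At the kinetochore, checkpoint kinases delay anaphase until every chromosome is attached, after which an APC/C ubiquitin ligase charged with CDC20 releases separase and destroys cyclin B. Most of these genes are transcribed late in the cycle, through the MuvB complex, B-MYB and FOXM1, which act at promoters with a CHR element or CCAAT boxes. In bulk RNA, fewer cells in G2 or mitosis and less RNA of a gene per cell cannot be told apart.

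The targeted gene MYCN read 2202 on the anti-MYCN PNA array, against 2804 with mutated PNA and 3313 in untreated cells by its brightest probe set. In log2 that was -0.35 to mutated PNA and -0.59 to untreated. The difference to mutated PNA is inside the 0.37 that spans 95% of differences between the controls among genes of like signal. The arrays also differed in the signal of spiked RNA that is not from the cells. All 24 probe sets of bacterial poly-A spikes were lower with anti-MYCN PNA than in both controls, at a median ratio of 0.382 to mutated PNA and 0.410 to untreated, and their part in the results below was not tested. Of 8 rhabdomyosarcoma and myoblast markers with a probe set, 7 passed the filter, MYOD1 and MYOG among them. DES and CDH15, 2 of the 7 (28.6%), exceeded both controls by 1.5-fold or more, where 8.27% of all genes did. By any amount 4 of the 7 were higher than both controls and 0 lower, and MYOG, CHRNA1 and FOXO1 lay between the controls. The part of these markers in the results was not tested. None of 9 leukocyte, epithelial and endothelial markers passed, the highest of them reading 75.3 against a filter of 117.

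Most kinetochore, cytokinesis and condensation genes read lower with anti-MYCN PNA, while genes that switch CDK1 on or off and genes of anaphase onset mostly did not. A gene was counted when the smaller of its log2 differences to the controls was at least 1.5-fold in the same direction. By that rule 9 of 44 (20.5%) were lower than both controls, namely ECT2, CCNB1, SMC4, KIF23, SMC2, BUB1, CDK1, CENPE and NDC80, where 7.37% of all genes were. PKMYT1 and CDC25A were higher than both, 2 of 44 (4.55%), where 8.27% of all genes were. At 2-fold only ECT2 was lower and only PKMYT1 higher, where 1.26% and 1.16% of all genes were. By any amount, 24 were lower and 14 higher than both controls and 6 lay between them, where 37.6% of all genes were lower and 47.9% higher.

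The members' median log2 difference was -0.19 to mutated PNA and -0.05 to untreated, against 0.06 and 0.06 over all genes. These counts and medians move with the scaling of the arrays. With each array scaled to a common median, the median of all genes was -0.11 to mutated PNA and -0.14 to untreated, and 16 members were at least 1.5-fold lower and 1 higher, where 13.7% and 3.84% of all genes were. Relative to the median of all genes, the members lay at -0.25 to mutated PNA by either of these scalings and at -0.17 after quantile normalization. To untreated they lay nearer, at -0.12 as scaled here, -0.11 with a common median and -0.04 after quantile normalization. Of the members higher than both controls, 7 of 14 were so in all 3 scalings, and of those lower, 21 of 24 were.

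The difference between the controls gives the only measure of background. Among genes of like signal (10 classes of mean signal), 95% of control differences were no larger, in log2, than 0.28 for the brightest members and 0.50 for the dimmest. Beyond that size in the same direction from both controls were 15 members (34.1%) below, where 10.6% of all genes were. Above were 5 members (11.4%), where 11% of all genes were, so the share above is near that of all genes. Besides the 9 named, the lower ones were WEE1, MAD2L1, TTK, RACGAP1, NCAPG and TOP2A. Besides PKMYT1 and CDC25A, the higher ones were CDC25B, UBE2C and ESPL1. NDC80 at -0.60 was the last lower member past the 1.5-fold limit. NCAPG at -0.55, TTK at -0.55 and MAD2L1 at -0.54 fell just short of it, as CDC25B at 0.50 did on the other side.

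**Figure D1:**
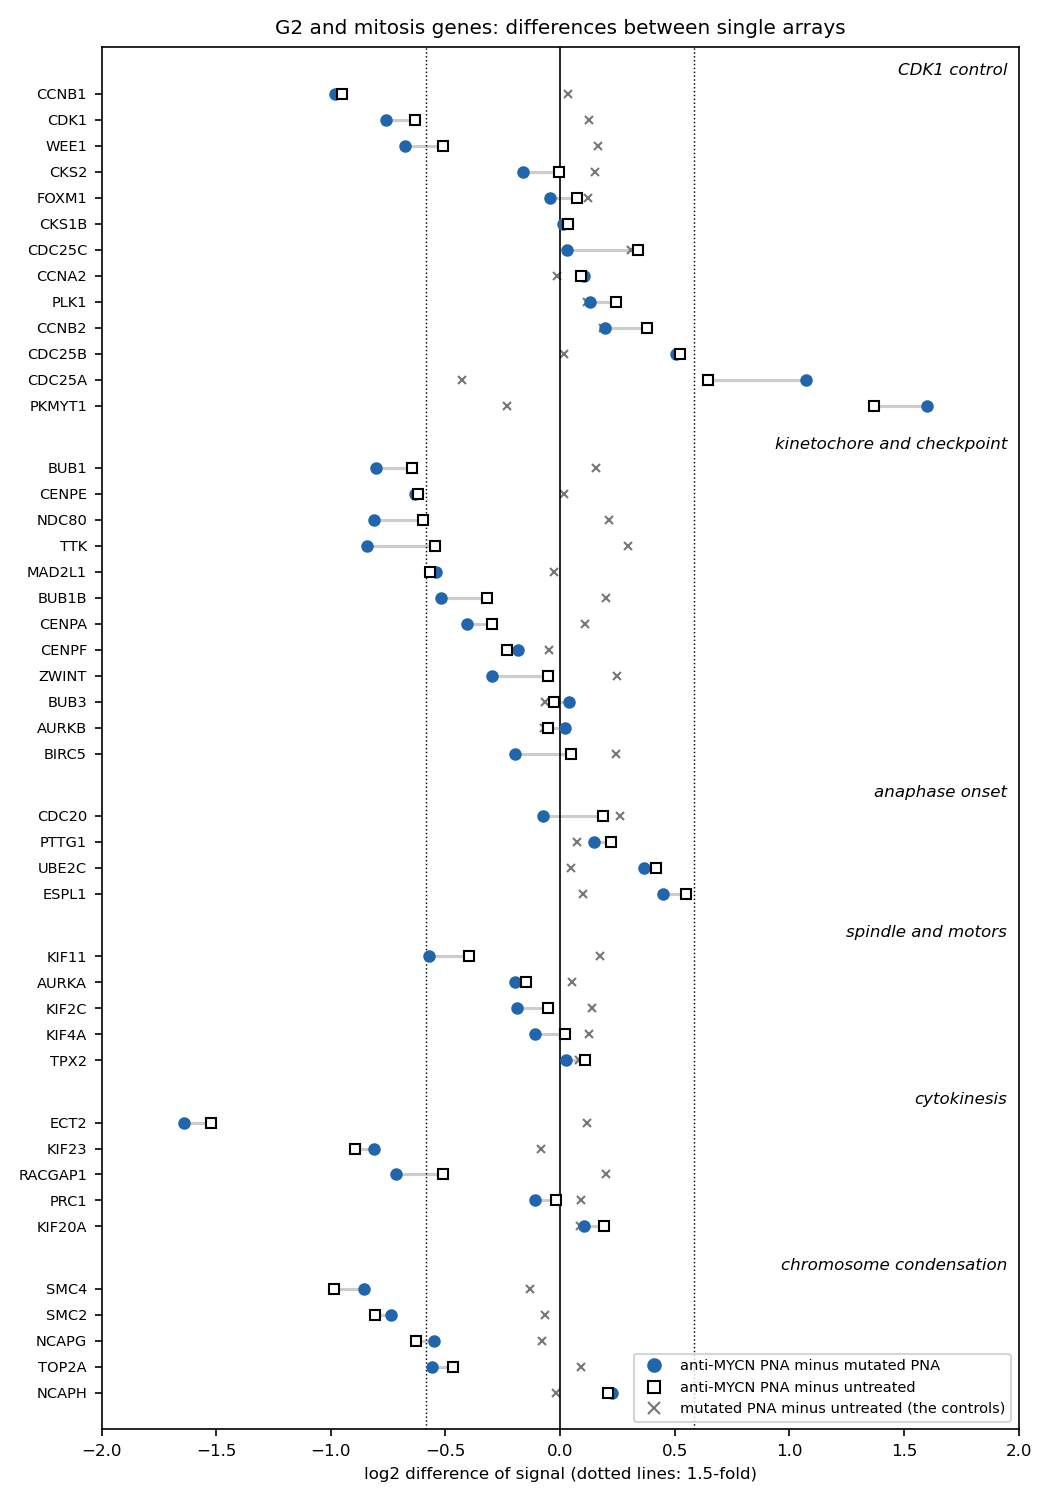
Log2 difference of signal (x axis) for each of the 44 measured genes (y axis), grouped by step and sorted within it, with filled circles for anti-MYCN PNA minus mutated PNA, open squares for anti-MYCN PNA minus untreated, crosses for mutated PNA minus untreated and dotted lines at 1.5-fold, each from single arrays. The kinetochore, cytokinesis and condensation genes lie mostly left of 0, ECT2 furthest at -1.64 and -1.52, and PKMYT1 lies furthest right at 1.60 and 1.37.

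Among the 13 genes of CDK1 control the mitotic cyclin CCNB1 and the kinase itself were lower. Of the enzymes that set CDK1's phosphorylation, PKMYT1, CDC25A and CDC25B were higher. WEE1 and CDC25C had probe sets on opposite sides of the controls. CCNB1, the cyclin that activates CDK1 for mitosis, read 2578 with anti-MYCN PNA, against 5094 with mutated PNA and 4980 in untreated cells. It stood at 50.6% of mutated PNA and 51.8% of untreated, while the controls lay 0.03 apart on the log2 scale. CCNB2, which encodes the other major mitotic cyclin B, read 4993 with anti-MYCN PNA, against 4360 with mutated PNA and 3835 in untreated cells. The pair lay on opposite sides of the controls on the same arrays, CCNB2 by 0.20 over the nearer control, which is inside the size of 0.28 that spans 95% of control differences at its signal. CDK1 read 1716 with anti-MYCN PNA, against 2909 with mutated PNA and 2662 in untreated cells, so that the smaller log2 difference was -0.63. The CDK-binding subunits CKS1B and CKS2 differed from the nearer control by 0.01 and -0.01, and by -0.16 and -0.21 under scaling to a common median.

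PKMYT1, the membrane-bound kinase that inhibits CDK1, read 1399 with anti-MYCN PNA, against 462 with mutated PNA and 542 in untreated cells. It was 3.03-fold over mutated PNA and 2.58-fold over untreated. Its only probe set has the suffix _x_at, a mark of probes shared with other transcripts, so its level is uncertain. WEE1, the nuclear kinase with the same role, read 2092 with anti-MYCN PNA, against 3341 with mutated PNA and 2978 in untreated cells by its brightest probe set. A second WEE1 probe set read 972 with anti-MYCN PNA, against 742 with mutated PNA and 771 in untreated cells, so WEE1 has no settled direction.

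Of the 3 CDC25 phosphatases, CDC25A and CDC25B read above both controls in all 3 scalings. CDC25A, which acts at G1/S as well as at G2, read 1531 with anti-MYCN PNA, against 729 with mutated PNA and 980 in untreated cells. Mutated PNA minus untreated was -0.43 on the log2 scale, the widest control difference of any member, and a dimmer probe set read 314 with anti-MYCN PNA, against 189 with mutated PNA and 117 in untreated cells. Under scaling to a common median CDC25A was 0.44 over the nearer control and no longer 1.5-fold. CDC25B, an activator of CDK1 at the centrosome, read 2588 with anti-MYCN PNA, against 1824 with mutated PNA and 1801 in untreated cells. CDC25C differed from the nearer control by 0.03 by its brighter probe set, and by 0.00 under scaling to a common median.

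By their brightest probe sets cyclin A, the mitotic polo kinase and the late-cycle transcription factor stayed near the controls. CCNA2 lay at 0.09 from the nearer control, PLK1 at 0.13 and FOXM1 between the controls with 1849 on the anti-MYCN PNA array, against 1909 with mutated PNA and 1755 in untreated cells. Under scaling to a common median CCNA2 turned to -0.07, PLK1 lay between the controls and FOXM1 was at -0.12. A second CCNA2 probe set was at -0.57 from the nearer control, so CCNA2 has no settled direction.

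The starts of CCNB1 and CDC25A, lower and higher than both controls, are shown because they are among the members furthest apart on these arrays. They are the 250 bases before the RefSeq start in GRCh38.p14, at chr5:69166900-69167149 on the plus strand and chr3:48188418-48188667 on the minus strand. Capitals mark matches to CCAAT and, in CCNB1, to the E-box CACGTG, the sequence that MYC-family factors bind. PKMYT1 is not in the promoter table.
CCNB1: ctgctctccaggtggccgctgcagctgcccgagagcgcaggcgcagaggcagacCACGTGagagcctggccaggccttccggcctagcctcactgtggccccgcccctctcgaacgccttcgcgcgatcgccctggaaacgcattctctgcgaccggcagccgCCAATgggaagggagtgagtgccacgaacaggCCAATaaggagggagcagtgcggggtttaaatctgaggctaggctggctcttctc
CDC25A: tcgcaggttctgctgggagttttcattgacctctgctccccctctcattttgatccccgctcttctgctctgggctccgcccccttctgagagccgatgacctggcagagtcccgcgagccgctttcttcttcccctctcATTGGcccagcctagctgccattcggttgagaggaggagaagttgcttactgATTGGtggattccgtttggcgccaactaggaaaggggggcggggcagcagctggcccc
Counted from the RefSeq start, CCNB1 has CCAAT at -87 and -55 and the E-box at -196, and CDC25A has CCAAT on its reverse strand at -110 and -58. Both genes hold 2 CCAAT boxes, CCNB1 among the lower and CDC25A among the higher.

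Of 12 kinetochore and checkpoint genes 9 read below both controls, 3 lay between them and 0 above, where 37.6% of all genes were below and 47.9% above. The median log2 difference was -0.46 to mutated PNA and -0.31 to untreated. NDC80, which encodes the outer kinetochore protein that grips microtubules, read 836 with anti-MYCN PNA, against 1469 with mutated PNA and 1267 in untreated cells. CENPE, a kinesin that carries chromosomes to the spindle equator, read 511 with anti-MYCN PNA, against 793 with mutated PNA and 784 in untreated cells. The controls differed by 0.02 for CENPE and 0.21 for NDC80, so NDC80 lay nearer to untreated cells than to mutated PNA.

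Of the checkpoint genes, BUB1, TTK and MAD2L1 lay below both controls by more than the control differences at their signal. BUB1, a checkpoint kinase and scaffold, read 708 with anti-MYCN PNA, against 1236 with mutated PNA and 1110 in untreated cells. TTK, the kinase that starts checkpoint signalling, read 529 with anti-MYCN PNA, against 948 with mutated PNA and 773 in untreated cells. MAD2L1, which encodes the MAD2 inhibitor of CDC20, read 3531 with anti-MYCN PNA, against 5145 with mutated PNA and 5237 in untreated cells. For all 3 genes the anti-MYCN PNA array gave the lowest signal, at 55.8% to 68.6% of mutated PNA and 63.8% to 68.5% of untreated. BUB1B, which encodes BUBR1, was 0.32 below the nearer control on the log2 scale, inside the 0.37 that spans 95% of control differences at its signal.

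Other kinetochore genes were closer to the controls. CENPA, the centromeric histone, and CENPF, a late kinetochore protein, were -0.30 and -0.18 from the nearer control, and ZWINT was -0.05. AURKB and BIRC5, the kinase and survivin subunit of the chromosomal passenger complex, lay between the controls. AURKB read 1924 with anti-MYCN PNA, against 1897 with mutated PNA and 1994 in untreated cells. BUB3, a checkpoint partner of BUB1, also lay between them by its brightest probe set. Its other probe sets were lower than both controls, at -0.20, -0.14 and -0.28 from the nearer one. The other BIRC5 probe sets were higher than both, at 0.18 and 0.01. Under scaling to a common median AURKB, BIRC5 and BUB3 were at -0.15, -0.15 and -0.13.

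None of the 4 genes of anaphase onset read below both controls, except CDC20 at -0.01 under scaling to a common median. UBE2C, the ubiquitin-conjugating enzyme of the APC/C, read 8918 with anti-MYCN PNA, against 6917 with mutated PNA and 6684 in untreated cells. ESPL1, which encodes separase, the protease that cuts cohesin, read 2062 with anti-MYCN PNA, against 1511 with mutated PNA and 1410 in untreated cells. Both were above the controls in all 3 scalings, UBE2C by 0.37 and ESPL1 by 0.45 on the log2 scale, though by 0.20 and 0.28 under scaling to a common median. PTTG1, which encodes the separase inhibitor securin, was 0.15 above the nearer control but between the controls under scaling to a common median. CDC20, the APC/C activator, lay between the controls with 3269 on the anti-MYCN PNA array, against 3439 with mutated PNA and 2870 in untreated cells.

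None of the 5 spindle genes was 1.5-fold from both controls, except KIF11 at -0.60 under scaling to a common median. KIF11, the kinesin that separates spindle poles, read 585 with anti-MYCN PNA, against 872 with mutated PNA and 772 in untreated cells, and its smaller log2 difference of -0.40 is inside the 0.46 that spans 95% of control differences at its signal. AURKA, the spindle pole kinase, was at -0.15, the depolymerising kinesin KIF2C at -0.05 and the AURKA activator TPX2 at 0.03. The chromokinesin KIF4A lay between the controls. TPX2 and KIF4A were at -0.09 and -0.18 under scaling to a common median, and KIF2C lay between the controls after quantile normalization.

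In cytokinesis ECT2, KIF23 and RACGAP1 read below both controls by more than the control differences at their signal, and PRC1 and KIF20A did not. ECT2, the exchange factor that switches on RhoA at the cleavage plane, read 205 with anti-MYCN PNA, against 641 with mutated PNA and 591 in untreated cells. It stood at 32.1% of mutated PNA and 34.8% of untreated, the lowest of any member. KIF23 and RACGAP1 together form centralspindlin, which recruits ECT2. KIF23 read 546 with anti-MYCN PNA, against 959 with mutated PNA and 1015 in untreated cells, and RACGAP1 read 2236 with anti-MYCN PNA, against 3669 with mutated PNA and 3191 in untreated cells. For each of these 3 genes the anti-MYCN PNA array lay below both controls. PRC1, the microtubule bundler that marks the central spindle, was at -0.02 from the nearer control and between the controls after quantile normalization. KIF20A, the kinesin that brings mitotic kinases there, was at 0.10 and turned to -0.01 under scaling to a common median.

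The start of ECT2, the member furthest below the controls, lies at chr3:172750476-172750725 on the plus strand of GRCh38.p14. These are the 250 bases before the upstream one of its listed RefSeq starts. Capitals mark a match to the CHR element TTTGAA at -115 and CCAAT at -97 and -58.
ECT2: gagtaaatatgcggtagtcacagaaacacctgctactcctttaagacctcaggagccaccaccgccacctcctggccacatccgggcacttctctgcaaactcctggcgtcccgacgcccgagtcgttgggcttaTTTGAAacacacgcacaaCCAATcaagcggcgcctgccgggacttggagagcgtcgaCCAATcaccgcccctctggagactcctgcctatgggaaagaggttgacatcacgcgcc

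Condensation genes read lower except NCAPH. SMC4, an ATPase core subunit of condensin, read 1902 with anti-MYCN PNA, against 3443 with mutated PNA and 3766 in untreated cells. SMC2, its partner, read 791 with anti-MYCN PNA, against 1320 with mutated PNA and 1383 in untreated cells. By their brightest probe sets both stood between 50.5% and 59.9% of their controls. The other SMC4 probe sets were at -0.56 and -0.49 from the nearer control, short of 1.5-fold. NCAPG, a regulatory subunit of condensin I, read 1299 with anti-MYCN PNA, against 1900 with mutated PNA and 2005 in untreated cells. TOP2A, the topoisomerase that untangles sister DNA, read 3570 with anti-MYCN PNA, against 5254 with mutated PNA and 4938 in untreated cells. NCAPH, the kleisin that closes the condensin I ring, read 914 with anti-MYCN PNA, against 781 with mutated PNA and 790 in untreated cells, and was above both in all 3 scalings. Of the other condensin subunits, named after their values were seen, NCAPD2, NCAPD3, NCAPG2 and NCAPH2 were at -0.07, -0.33, 0.13 and 0.26 from the nearer control, so the lower signals of SMC2, SMC4 and NCAPG were not shared by every subunit.

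**Figure D2:**
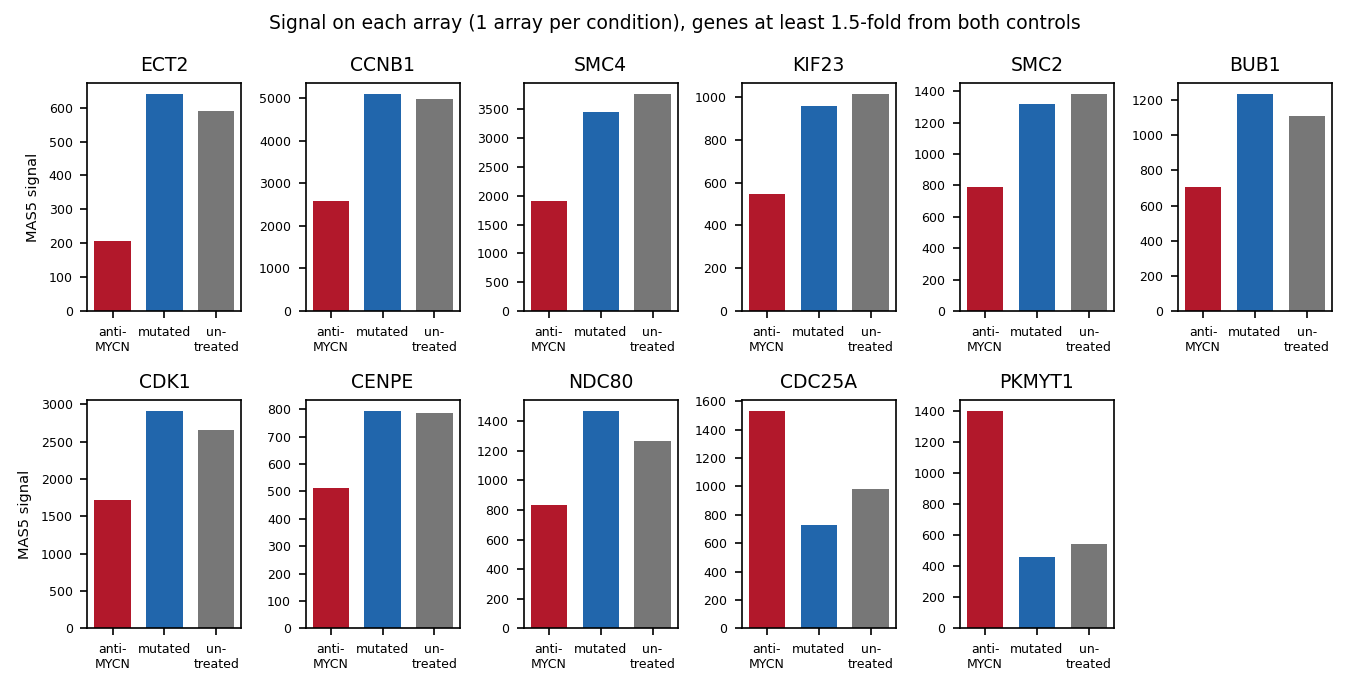
MAS5 signal (y axis, linear from 0, a scale of its own in each panel) on the anti-MYCN PNA, mutated PNA and untreated arrays for the 11 members at least 1.5-fold from both controls, 1 array per bar and no error. In 9 panels the anti-MYCN PNA bar is the lowest, and in those of CDC25A and PKMYT1 it is the highest.

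The probe sets of a gene bind different stretches of its transcripts and did not always give the same direction. Of 71 probe sets for these genes 65 passed the filter, 39 of them lower and 19 higher than both controls. Of the 65, 12 were at least 1.5-fold lower and 3 at least 1.5-fold higher. In 16 genes several probe sets passed. In 8 of these all were lower than both controls (CDK1, CENPF, BUB1, AURKA, SMC2, SMC4, NCAPG and TOP2A), and in 2, CDC25A and ESPL1, all were higher. BUB3, BIRC5 and KIF2C had some between the controls. None of these probe set counts has a share over all probe sets beside it, so they describe these genes only. The brightest probe sets of 5 genes (PKMYT1, FOXM1, CENPA, BUB3 and PTTG1) have the suffix _x_at, so their levels may include other transcripts.

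CCNA2, CDC25C and WEE1 had probe sets on opposite sides. The brightest CCNA2 probe set was 0.09 above the nearer control, and the other read 1802 with anti-MYCN PNA, against 2927 with mutated PNA and 2668 in untreated cells. The dimmer CDC25C probe set read 112 with anti-MYCN PNA, against 173 with mutated PNA and 177 in untreated cells, a log2 difference of -0.63, where the brighter lay at 0.03. CDK1 kept its direction in 3 probe sets but not its size, with smaller log2 differences of -0.63, -0.36 and -0.22, and by the median over probe sets it was no longer 1.5-fold. SMC4 likewise kept its direction in 3 probe sets, at -0.86, -0.56 and -0.49, of which only the first was 1.5-fold. For SMC2 the dimmer probe set lay further below, at 413 with anti-MYCN PNA, against 821 with mutated PNA and 768 in untreated cells.

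**Figure D3:**
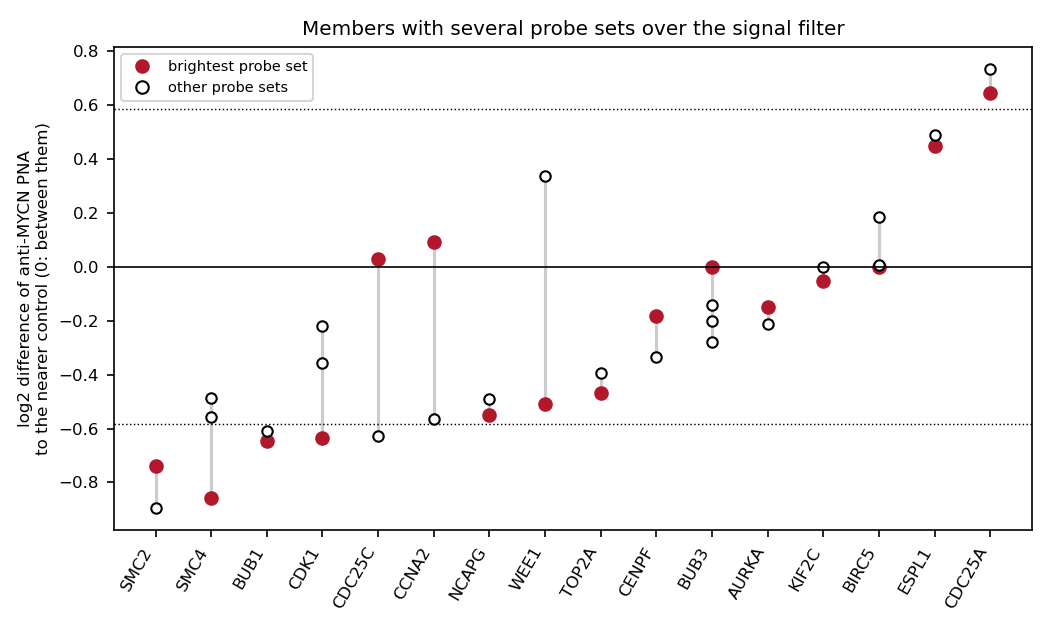
Log2 difference between anti-MYCN PNA and the nearer control (y axis, 0 where it lies between the controls) for every probe set over the signal filter in the 16 genes (x axis) with several, the brightest of a gene as a filled circle and the others open, joined by a line, with dotted lines at 1.5-fold. The lines of CDC25C, CCNA2 and WEE1 cross 0.

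None of the 44 was 1.5-fold higher or lower with mutated PNA than without treatment, where 2.4% and 2.27% of all genes were. With shares that small, 0 of 44 is near those of all genes. The differences ran from -0.43 for CDC25A to 0.31 for CDC25C. By any amount 32 of 44 (72.7%) were higher with mutated PNA, where 50.2% of all genes were, and the median was 0.09, against 0.00 over all genes. That median is larger in size than the members' -0.05 between anti-MYCN PNA and untreated. The comparisons of anti-MYCN PNA with each control share the anti-MYCN PNA array. Against mutated PNA alone 12 members were at least 1.5-fold lower and 2 higher, where 10.7% and 13.1% of all genes were. Against untreated alone 10 were lower and 2 higher, where 10.4% and 13.1% of all genes were.

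The starts of these genes share sequence that the list did not use. In the RefSeq promoter table of GRCh38.p14, 34 of the 44 genes have 47 windows, each from 250 bases before to 50 after a listed start, some of which overlap. The CHR element, searched as TTTGAA or TTCGAA on both strands, was in 29 of the 47 windows, 61.7%, against 16.4% of all 35116 windows. The CCAAT box, searched on both strands, was in 33 of 47, 70.2%, against 34.6% of all. The E-box CACGTG, which reads the same on both strands, was in 4 of 47, 8.51%, against 7.26% of all. A CHR match was found in 7 of the 9 genes at least 1.5-fold lower and in 18 of the other 25, and a CCAAT box in 5 of 9 and 22 of 25. E-boxes were in 2 of 9 and 2 of 25.

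For each of the 7 lower genes with a CHR match, the one nearest to a listed start that has 12 bases on either side within the window is shown, so that the stretch beside the element can be read. The windows are in GRCh38.p14, CDK1 at chr10:60778475-60778504 (plus strand), NDC80 at chr18:2571542-2571571 (plus strand), BUB1 at chr2:110678045-110678074 (minus strand), KIF23 at chr15:69414282-69414311 (plus strand), ECT2 at chr3:172750599-172750628 (plus strand), SMC2 at chr9:104094294-104094323 (plus strand), SMC4 at chr3:160399563-160399592 (plus strand). Each line gives 30 bases in the direction of the gene, with the match in capitals, as TTTGAA, its reverse complement TTCAAA, or TTCGAA, and further matches are left in lower case.
CDK1: ctcgcacttggcTTCAAAgctggctcttgg
NDC80: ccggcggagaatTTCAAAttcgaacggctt
BUB1: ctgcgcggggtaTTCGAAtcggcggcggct
KIF23: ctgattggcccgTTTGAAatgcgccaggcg
ECT2: tcgttgggcttaTTTGAAacacacgcacaa
SMC2: ctcgcgccgaaaTTCAAAggaataaatagt
SMC4: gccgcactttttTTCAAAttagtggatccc
The matches shown begin between -115 (ECT2) and 10 (CDK1) from the start, a further ECT2 match at 35 lies too near the end of its window to be shown, and those of NDC80, SMC2 and BUB1 lie within 3 bases of it. CCNB1 and CENPE had no match in their windows.

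Other genes of the pathway, from lists chosen with earlier results of these data known, were counted the same way. Of 48 other measured G2 and mitosis genes 6 (12.5%) were at least 1.5-fold lower than both controls and 0 higher, where 7.37% and 8.27% of all genes were, and the median was -0.23 to mutated PNA and -0.13 to untreated. Furthest below were CENPI, a centromere protein, at 194 with anti-MYCN PNA, against 440 with mutated PNA and 394 in untreated cells, and FBXO5, the APC/C inhibitor EMI1, at 436 with anti-MYCN PNA, against 1006 with mutated PNA and 850 in untreated cells. The centriole kinase PLK4 read 488 with anti-MYCN PNA, against 841 with mutated PNA and 844 in untreated cells. Furthest above were NUMA1, a spindle pole protein, CENPM and TROAP at 0.55, 0.47 and 0.44 over the nearer control.

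Among 17 measured APC/C and cohesin genes, which are expressed through the whole cycle, 5 (29.4%) were at least 1.5-fold lower and 0 higher, where 7.37% and 8.27% of all genes were. PDS5A, NIPBL and PDS5B, regulators and loader of cohesin, were at -1.14, -0.97 and -0.71 from the nearer control. ANAPC2, the APC/C cullin, FZR1, its late activator, and ANAPC5, a subunit, were at 0.52, 0.35 and 0.06, the last being smaller than the shift of all genes under scaling to a common median. The list's median was -0.48 to mutated PNA and -0.37 to untreated, and its difference from the mitotic genes has no test.

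Of 56 measured G1/S and replication genes 1 (1.79%) was at least 1.5-fold lower and 3 (5.36%) higher, both shares below the 7.37% and 8.27% of all genes. By any amount 55.4% were lower than both controls and 37.5% higher, where 37.6% and 47.9% of all genes were. The share lower was 54.5% for the members, 58.3% for the other G2 and mitosis genes and 82.4% for APC/C and cohesin genes. A share of lower genes of this size was thus not particular to the members. RBL2 and RBL1, relatives of the retinoblastoma protein, and ORC4, an origin recognition subunit, were at -0.75, -0.52 and -0.47. E2F1, which drives S phase genes, POLD1 and LIG1, a polymerase and a ligase of replication, were at 1.03, 0.74 and 0.64. The median was -0.13 to mutated PNA and -0.15 to untreated.

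**Figure D4:**
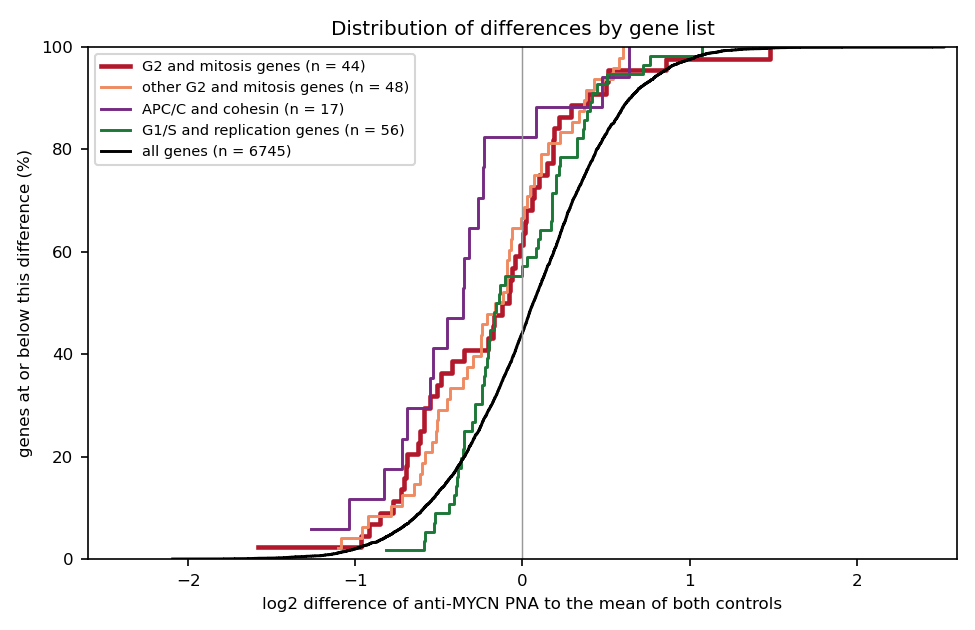
Share of genes (y axis, %) at or below a given log2 difference between anti-MYCN PNA and the averaged controls (x axis), for each list and all genes, from single arrays. At the median the 44 G2 and mitosis genes lie at -0.10, the other G2 and mitosis genes at -0.14, APC/C and cohesin at -0.35, G1/S and replication genes at -0.15 and all 6745 genes at 0.06.

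The span of a gene on its chromosome, taken from the RefSeq gene table, moved with these differences. The 9 members at least 1.5-fold lower had a median span of 40.5 kb, and the 24 lower than both controls by any amount one of 34.0 kb, against 15.3 kb for the 14 higher by any amount. The median span was 24.1 kb over the 44 members and 32.1 kb over all genes. Over all 6744 genes with a span, Spearman's rho between span and the log2 difference between anti-MYCN PNA and the averaged controls was -0.24, and over the 44 members -0.38, while between the controls it was 0.01 over all genes. Genes are not independent replicates, and these points share their arrays. With all genes in 4 equal groups by span, 2.73% of the shortest group (up to 13.2 kb) were at least 1.5-fold lower, 5.28% of the second, 9.85% of the third and 11.6% of the longest (from 74.3 kb).

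In the same 4 groups, the members at least 1.5-fold lower were 1 of 15 (CCNB1), 1 of 12 (CDK1), 5 of 14 and 2 of 3. KIF4A, with the longest span of any member at 131 kb, lay between the controls. The part of gene span in the lower signals was not tested.

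**Figure D5:**
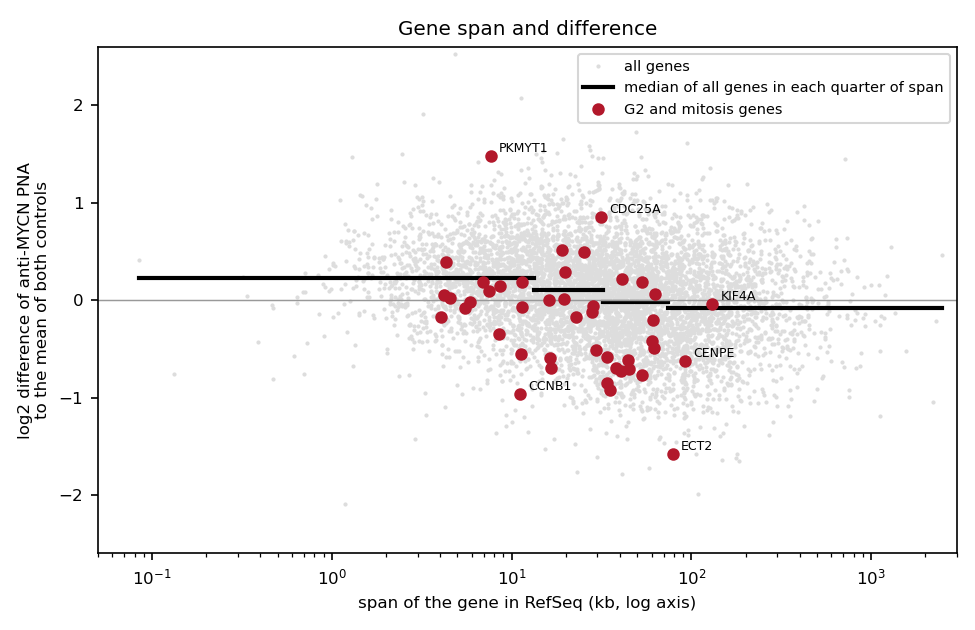
Log2 difference between anti-MYCN PNA and the averaged controls (y axis) against the span of each gene (x axis, kb, log axis). Small grey points are all genes, filled circles the 44 members (6 named) and horizontal bars the median of all genes in each of 4 equal groups by span, at 0.22, 0.10, -0.01 and -0.08 in order of span.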

How the data were processed

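Total RNA was labelled by the one-cycle protocol and hybridised to Affymetrix arrays, per the labels' protocols. The authors deposited 1 linear intensity for each probe set. MAS5 and GCOS are named in the submitters' processing notes. The 2% trimmed mean was 500.2 on all 3 arrays while the medians differed, at 127 (anti-MYCN PNA), 112 (mutated PNA) and 111 (untreated). A common trimmed mean leaves the medians free to differ, so the choice of scaling can move every difference. Detection calls and scanner files were not used here.

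Each array was scaled to that mean, a floor of 23.4 (the 25th percentile over all arrays) was applied, and values were put on the log2 scale. Of 22215 gene probe sets, 19064 name 1 gene in GEO's platform annotation. Symbols were updated by Entrez identifier (19052 matched). A mean signal over the 3 arrays of 117 or more (the 50th percentile) was required, which 9899 probe sets met, and each gene took its brightest, for 6745 genes. No test was possible, so genes were counted past 1.5-fold from both controls. Precision is limited by having 1 array per condition.

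The members, the lists and the rule for named genes (all members, and the 3 furthest each way of each other list) were chosen with earlier results of these data known. Counting was tested on simulated data. Alternatives were quantile normalization, median scaling, other filters, no floor, a pseudocount of 16, the median over probe sets, probe sets without _x_at and _s_at, a 2-fold threshold and, added after seeing the data, each control alone. Scripts ran in Python 3.11.15 with pandas 2.3.3, numpy 2.4.6, matplotlib 3.10.9 and scipy 1.17.1.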

Additional observations from a re-analysis of the deposited data

How the results depend on the processing

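Scaling each array to a common median gave 16 members at least 1.5-fold lower than both controls and 1 higher, 7 higher by any amount, and medians of -0.36 to mutated PNA and -0.25 to untreated. That scaling lowers the whole anti-MYCN PNA array against the controls. Without _x_at and _s_at probe sets 24 members remained measured, of which 13 were lower and 9 higher by any amount and 1 was at least 1.5-fold higher, with medians of -0.29 and -0.19. A 2-fold threshold left 1 member lower and 1 higher. The other 54 values of the 7 counts and medians, each control taken alone included, stayed within 1.5 times (counts) or 0.1 (log2 medians) of those reported. Of the 83 values that 8 other settings gave for the 11 members past 1.5-fold, 83 kept their direction and 80 stayed past it. The exceptions were CDC25A at 0.44 under median scaling, NDC80 at -0.57 under quantile normalization and CDK1 at -0.36 by the median over probe sets. By that median, taken to each control separately, SMC4 stayed narrowly past 1.5-fold at -0.60. The middle of its 3 probe sets was at -0.56 from the nearer control, which is short of 1.5-fold. Not every setting could measure all 11. ECT2 was not measured with a filter at the 75th percentile. Without _x_at and _s_at probe sets ECT2, CCNB1, KIF23 and PKMYT1 were not measured. The only probe set of each of these genes has such a suffix, so its direction has no second probe set to check it. No paired analysis was possible because each condition has 1 array, which also leaves no replicate to leave out.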

Other observations

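Besides FOXM1, a list of regulators of late-cycle transcription was counted. Of 10 measured genes on it, 2 were at least 1.5-fold lower than both controls and 0 higher, where 7.37% and 8.27% of all genes were. NFYB, a subunit of the CCAAT-binding factor NF-Y, read 387 with anti-MYCN PNA, against 634 with mutated PNA and 594 in untreated cells, and NFYC, another subunit, whose probe set is an _x_at one, read 501 with anti-MYCN PNA, against 375 with mutated PNA and 399 in untreated cells. E2F8, a repressor of the E2F family, read 343 with anti-MYCN PNA, against 608 with mutated PNA and 525 in untreated cells. MYBL2, which encodes B-MYB, read 5428 with anti-MYCN PNA, against 3504 with mutated PNA and 4377 in untreated cells. RBBP4, a histone-binding subunit of the MuvB complex, was at -0.30 from the nearer control, and TFDP2, a dimerisation partner of E2F factors, at 0.23. The median of the list was -0.02 to mutated PNA and -0.14 to untreated.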
